A study of Mus musculus with 9 samples.

Results

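Ectoenzymes of NAD and adenosine metabolism were described by the mRNA of 9 genes, namely Cd38, Bst1, Nt5e, Entpd1, Alpl, Enpp1, Ada, Adora2a and P2rx7. They were taken by symbol from a table of 24459 rows, and each of the 9 symbols had 1 row. The libraries came from B cells sorted by flow cytometry from the spleens of naive mice that were 8 to 10 weeks old, untreated and without an engineered allele in the labels. Follicular (FO) B cells and BDL, the follicular B cells with low IgD, shared the gate B220+IgMintCD21intCD23+CD93- and were divided by IgD, high in FO. Marginal zone (MZ) B cells were sorted as B220+IgMhiCD21hiCD23-CD93-. Each subset had 3 libraries, and the spleens of 5 mice were pooled for each sort. A library is thus a mean over mice, and the spread between single animals was not measured. The labels give the strain as C57/BL6 and the legend of the study's RNA-seq figure gives B10.PL. The strain was not tested from the data. The library titles end in numbers that read as dates, and each such date is shared by 1 library of every subset. They are taken here as sort dates, and replicate numbers 1, 2 and 3 follow their order.

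NAD and ATP are released by activated or dying cells, and enzymes on the outer face of the cell membrane turn them into products that other cells sense. CD38 and BST1 (CD157) cleave NAD to nicotinamide and ADP-ribose or cyclic ADP-ribose. ENTPD1 (CD39) removes phosphates from ATP and ADP to leave AMP, and NT5E (CD73) turns AMP into adenosine. ENPP1 cuts ATP to AMP and pyrophosphate, and also hydrolyses the dinucleotide cGAMP. Tissue non-specific alkaline phosphatase, the product of Alpl, hydrolyses pyrophosphate and nucleotide phosphates. Adenosine deaminase (ADA) turns adenosine into inosine, the adenosine receptor ADORA2A responds by raising cAMP, and P2RX7 is a cation channel opened by extracellular ATP. In the mouse spleen, MZ B cells lie beside the blood-filled marginal sinus and FO B cells recirculate through the follicles.

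The level of each gene is its FPKM, a number of fragments divided by transcript length in kb and by the mapped fragments of the library, so that levels can be compared between genes per length. Read counts were not analysed here. Judged by the step size of low values, a single fragment (1) per kb of transcript was worth about 0.0138 to 0.0183 FPKM, and the depth of the libraries was 0.91 to 1.21 times that of FO replicate 1. All 6 B cell markers were measured in every library, with a summed level of 2977 to 4311 FPKM. The summed level of 8 MZ markers was 403 to 475 FPKM in FO, 692 to 767 FPKM in BDL and 1969 to 2392 FPKM in MZ B cells. That of 5 FO markers was 1564 to 1667 FPKM, 1291 to 1586 FPKM and 435 to 565 FPKM, respectively. Between FO and BDL the MZ marker sum differed mainly by Plac8, with means of 233 and 542 FPKM. Cr2 (141 and 107 FPKM) and Dtx1 (38.2 and 37.2 FPKM) were lower in BDL, and the remaining MZ markers were higher by far fewer FPKM than Plac8. Relative to FO, the rise was larger than that of Plac8 for Cd9 (1.98 and 7.32 FPKM), Fcrl5 (5.79 and 18.3 FPKM) and Ackr3 (0.566 and 1.98 FPKM). It was smaller for S1pr3 (1.15 and 2.14 FPKM) and Cd1d1 (16.5 and 20.8 FPKM). Neutrophil markers stood apart by sort date: in the libraries of replicate 2, the summed level of the 7 markers in the table was 5.85 FPKM in FO, 5.45 FPKM in BDL and 6.70 FPKM in MZ B cells, compared with 0.255 to 1.07 FPKM in the other 6 libraries.

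Of the 9 genes, 6 had BDL levels between the FO and MZ means, with MZ above FO B cells for 5 and below for 1, whereas the purine receptors and Ada had other orders. For testing, limma was run on log2(FPKM + 0.1) over the 11597 rows whose 9 libraries averaged 0.5 FPKM or more, with Benjamini-Hochberg adjustment. Calls needed both an adjusted p below 0.05 and a 2-fold difference. Nt5e was under the minimum and the other 8 genes were tested. Between BDL and FO B cells, 2 of the 8 were called, Bst1 and Alpl, both higher in BDL, beside 1.91% of all rows tested. The same 2 passed the adjusted p alone, beside 7.73% of all rows, and the levels of 6 did not overlap, beside 34.8%. Between BDL and MZ B cells, 4 were called (background 7.8%), 7 passed the adjusted p alone (28.1%) and 7 did not overlap (38.9%). Between MZ and FO B cells, 3 were called (8.92%), 6 passed the adjusted p alone (27.1%) and 6 did not overlap (46.1%). The 3 comparisons share libraries and are not independent of each other. The median log2 fold change over all rows tested was 0.05 for BDL over FO, 0.06 for BDL over MZ and -0.01 for MZ over FO. For 3 libraries against 3, a two-sided exact permutation test of a single gene gives p = 0.1 where the levels do not overlap, which is the smallest p this design allows. In bulk samples such as these, fewer cells that express a gene and less RNA per cell cannot be told apart.

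**Figure D1:**
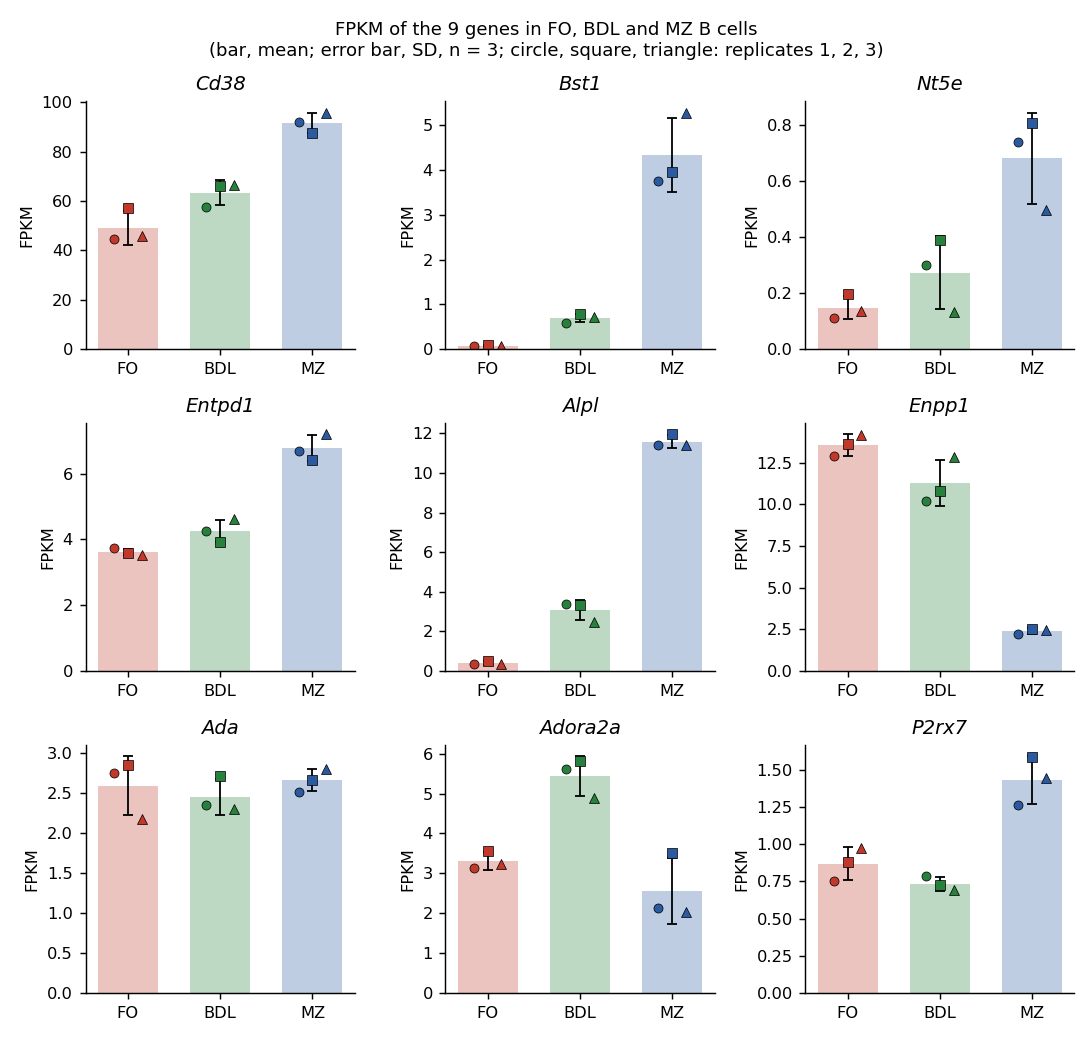
FPKM of the 9 genes (each panel has its own vertical axis) in the 3 FO, 3 BDL and 3 MZ libraries. Circles, squares and triangles are replicates 1, 2 and 3, shaded bars are the subset means and error bars are the SD (n = 3). Bst1 and Alpl step up from FO through BDL to MZ, Enpp1 drops in MZ, and Adora2a is highest in BDL.

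Cd38 was the most abundant of the genes, with its lowest levels in FO and its highest in MZ B cells. Its FPKM was 44.6, 57.1 and 46.0 in FO, 57.5, 65.9 and 66.6 in BDL, and 92.1, 87.4 and 95.6 in MZ B cells. The lowest BDL library stood just above the highest FO library, and every MZ library stood above both subsets. The means were 49.2 ± 6.85 FPKM in FO, 63.4 ± 5.06 FPKM in BDL and 91.7 ± 4.12 FPKM in MZ B cells (SD, n = 3). MZ exceeded FO B cells by a log2 difference of 0.90 (SE 0.11, adjusted p = 6.08e-04), which passed the p threshold but was under the 2-fold minimum. BDL were below MZ by the same criterion, with a log2 difference of -0.53 (adjusted p = 0.00954). The difference between BDL and FO was 0.37 (95% interval 0.11 to 0.63) and did not pass (adjusted p = 0.0914). FO replicate 2 bore on both comparisons with FO: without it the adjusted p of BDL over FO was 0.0476, and MZ over FO was 1.02 and called. Without replicate 2 of all subsets, MZ over FO was 1.05 and also called.

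Cd38 lies at chr5:44260048-44303614 on the plus strand of NCBIM37, the assembly also named mm9. The 250 bases before its annotated start are shown because Cd38 is the most abundant gene of the set. They are taken from RefSeq on GRCm38.p6, chr5:43868559-43868808, plus strand, with the letters TGGGAA, part of the motif bound by RBPJ in Notch signalling, in capitals.
Cd38 promoter: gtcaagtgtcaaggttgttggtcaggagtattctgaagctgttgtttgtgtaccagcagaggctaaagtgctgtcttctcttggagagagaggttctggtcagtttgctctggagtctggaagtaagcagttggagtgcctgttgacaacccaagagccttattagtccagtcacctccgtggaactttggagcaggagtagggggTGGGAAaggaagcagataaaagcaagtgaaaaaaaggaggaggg
The match begins 44 bases before the start. TGGGAA was searched on both strands and was found in 21.6% of 32851 promoters of the same length, so that a match is a description of the letters only.

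Bst1, the neighbour and paralog of Cd38, was lowest in FO, intermediate in BDL and highest in MZ B cells, and was called in all 3 comparisons. Its FPKM was 0.0744, 0.0928 and 0.0673 in FO, 0.592, 0.784 and 0.720 in BDL, and 3.76, 3.96 and 5.28 in MZ B cells. The 3 subsets did not overlap. The FO values rest on approximately 9 to 11 fragments per library, compared with 71 to 111 in BDL and 439 to 611 in MZ B cells, so that the FO level is the least precise of the 3. The mean of 0.699 ± 0.0978 FPKM in BDL was 8.94 times the FO mean of 0.0782 ± 0.0131 FPKM, and the MZ mean of 4.33 ± 0.83 FPKM was 6.2 times that of BDL (SD, n = 3). With 0.1 added, which draws the fold change of so low a gene toward 0, the log2 difference was 2.16 for BDL over FO (SE 0.19, adjusted p = 6.67e-04). It was -2.46 for BDL over MZ (adjusted p = 4.62e-05) and 4.62 for MZ over FO B cells (adjusted p = 1.54e-06). Bst1 reached the minimum of 0.5 FPKM only through its MZ level, and with only the 6 FO and BDL libraries it was not tested. When every row with a value above 0 was tested, the BDL over FO difference of 2.16 had an adjusted p of 9.47e-04 in limma. With 1 added instead of 0.1, it was 0.65 (adjusted p = 0.0117), under the 2-fold minimum.

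Bst1 lies at chr5:44210125-44234510 on the plus strand (NCBIM37), 25537 bp upstream of Cd38. Its annotated start overlaps Fbxl5, a ubiquitin ligase subunit that senses iron, which runs on the minus strand from chr5:44135855-44212878. The labels describe reads without strand, in which case fragments in the shared stretch cannot be assigned to either gene, whereas the methods of the study name a stranded kit. Fbxl5 was far more abundant, with 24.6 to 27.7 FPKM in FO, 29.7 to 32.2 FPKM in BDL and 38.0 to 46.8 FPKM in MZ B cells. Its log2 difference was 0.26 for BDL over FO (adjusted p = 0.147), -0.39 for BDL over MZ (adjusted p = 0.0189) and 0.65 for MZ over FO (adjusted p = 0.00154), all smaller than those of Bst1. Its part in the Bst1 values was not tested. Prom1, on the other side of Cd38, reached at most 0.295 FPKM in any library.

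Within each library, the ratio of Cd38 to Bst1 FPKM was highest in FO, intermediate in BDL and lowest in MZ B cells, without overlap. It was 599, 616 and 683 in FO, 97.3, 84.1 and 92.5 in BDL, and 24.5, 22.1 and 18.1 in MZ B cells. Cd38 thus remained the more abundant NAD-cleaving transcript in every library, by the least in MZ B cells.

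Alpl and Enpp1, which act on pyrophosphate from opposite sides, one by hydrolysing and the other by producing it, ran in opposite directions. Alpl FPKM was 0.349, 0.504 and 0.371 in FO, 3.37, 3.35 and 2.47 in BDL, and 11.4, 11.9 and 11.4 in MZ B cells. Every BDL library stood above every FO library and below every MZ library. The BDL mean of 3.07 ± 0.514 FPKM was 7.51 times the FO mean of 0.408 ± 0.0842 FPKM, and the MZ mean of 11.6 ± 0.307 FPKM was 3.78 times that of BDL (SD, n = 3). Alpl was called in all 3 comparisons. The log2 difference was 2.64 for BDL over FO (SE 0.15, adjusted p = 1.30e-04), -1.90 for BDL over MZ (adjusted p = 6.52e-05) and 4.54 for MZ over FO (adjusted p = 7.88e-07). Alpl and Bst1 are also transcribed in neutrophils, and leaving out the 3 libraries of replicate 2, those with the most neutrophil transcripts, gave BDL over FO differences of 2.70 for Alpl (adjusted p = 0.0114) and 2.14 for Bst1 (adjusted p = 0.0491). The part of neutrophils in the values of the other 6 libraries was not tested.

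Enpp1 FPKM was 12.9, 13.6 and 14.2 in FO, 10.2, 10.8 and 12.8 in BDL, and 2.22, 2.53 and 2.47 in MZ B cells. All BDL libraries were below all FO libraries by a narrow gap, and the MZ libraries stood far below both. The means were 13.5 ± 0.632, 11.3 ± 1.36 and 2.41 ± 0.164 FPKM (SD, n = 3), so that FO B cells held 5.63 times and BDL 4.69 times the MZ level. Enpp1 was called higher in BDL than in MZ B cells, with a log2 difference of 2.18 (SE 0.10, adjusted p = 4.47e-06), and MZ over FO was called at -2.45 (adjusted p = 1.56e-06). The BDL over FO difference of -0.27 (95% interval -0.50 to -0.04) did not pass (adjusted p = 0.146), and with the sort date as a replicate block its adjusted p was 0.042, and without BDL replicate 3 it was 0.0469.

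The ratio of Alpl to Enpp1 FPKM put the 3 subsets more than an order of magnitude apart at the extremes. It was 0.0270, 0.0371 and 0.0262 in FO, 0.330, 0.311 and 0.193 in BDL, and 5.14, 4.72 and 4.62 in MZ B cells. Enpp1 was thus the more abundant in every FO and BDL library and Alpl in every MZ library.

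Alpl lies at chr4:137297648-137352299 and Enpp1 at chr10:24357720-24431965, both on the minus strand of NCBIM37. The 250 bases before their annotated starts are shown because these genes were called in opposite directions. They are from RefSeq on GRCm38.p6, minus strand, at chr4:137796385-137796634 for the first Alpl start, chr4:137766476-137766725 for the other Alpl start and chr10:24712160-24712409 for Enpp1. Capitals mark the GC box letters GGGCGG or, at the other Alpl start, the TATA box letters TATAAA, on either strand.
Alpl promoter, first start: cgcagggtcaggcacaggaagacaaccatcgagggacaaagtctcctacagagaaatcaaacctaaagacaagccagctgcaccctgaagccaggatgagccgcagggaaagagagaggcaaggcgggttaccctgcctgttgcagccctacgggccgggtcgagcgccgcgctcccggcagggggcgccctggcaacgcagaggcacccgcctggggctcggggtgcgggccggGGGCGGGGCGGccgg
Alpl promoter, other start: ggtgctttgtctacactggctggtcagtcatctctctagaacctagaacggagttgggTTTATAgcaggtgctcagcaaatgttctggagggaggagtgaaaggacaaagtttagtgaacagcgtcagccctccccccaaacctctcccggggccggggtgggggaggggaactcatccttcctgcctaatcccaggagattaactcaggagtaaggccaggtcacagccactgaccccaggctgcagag
Enpp1 promoter: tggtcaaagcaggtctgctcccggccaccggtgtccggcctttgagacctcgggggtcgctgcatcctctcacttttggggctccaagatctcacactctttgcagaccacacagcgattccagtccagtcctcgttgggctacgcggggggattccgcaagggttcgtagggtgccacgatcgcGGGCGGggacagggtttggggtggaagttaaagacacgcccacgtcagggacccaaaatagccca
The first Alpl start has 2 overlapping GC boxes, at 15 and 10 bases before it, and Enpp1 has 1 at 65 bases. The TATA letters lie 192 bases before the other Alpl start. GGGCGG is held by 32.7% and TATAAA by 12.4% of the 32851 promoters. Which Alpl start was used cannot be read from a level per gene. RefSeq promoters were matched for 7 of the 9 genes, and those of Bst1 and Adora2a were not used here.

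**Figure D2:**
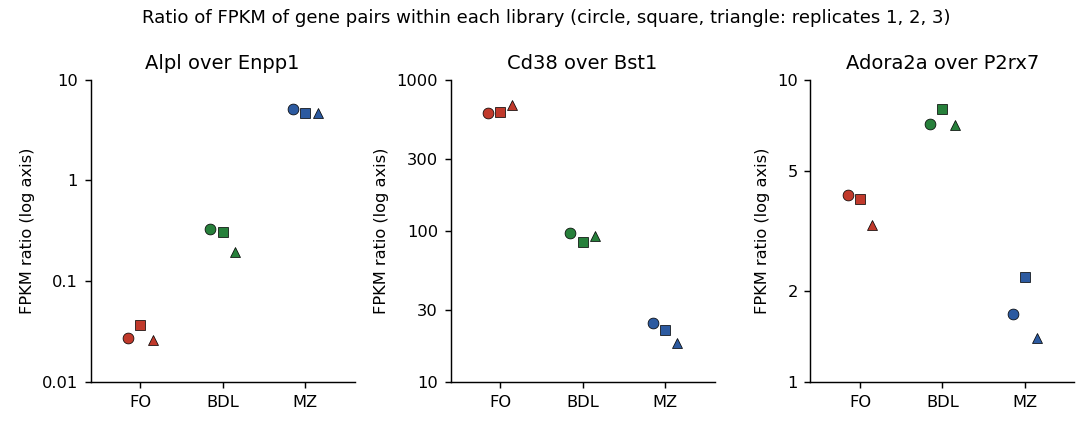
Ratio of the FPKM of 2 genes within each library (log axes) for Alpl over Enpp1, Cd38 over Bst1 and Adora2a over P2rx7, with circles, squares and triangles for replicates 1, 2 and 3. The first 2 ratios run in 1 direction from FO through BDL to MZ without overlap, and the third is highest in BDL, at 7.07 to 8.01.

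Entpd1 (CD39), which starts the breakdown of ATP toward adenosine, had its highest level in MZ B cells. Its FPKM was 3.73, 3.59 and 3.54 in FO, 4.26, 3.93 and 4.61 in BDL, and 6.70, 6.41 and 7.19 in MZ B cells. The 3 subsets did not overlap. MZ B cells (6.77 ± 0.394 FPKM) held 1.87 times the level of FO B cells (3.62 ± 0.0998 FPKM), with a log2 difference of 0.88 (SE 0.08, adjusted p = 1.20e-04), which is under the 2-fold minimum. BDL, at 4.27 ± 0.339 FPKM (SD, n = 3), differed from MZ by -0.65 (adjusted p = 7.45e-04). They differed from FO by 0.23 (95% interval 0.04 to 0.42), which did not pass (adjusted p = 0.134). Entpd1 lies at chr19:40686856-40816092 on the plus strand.

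Nt5e (CD73), the enzyme that forms adenosine from AMP, was near the lower limit of these libraries. Its FPKM was 0.113, 0.195 and 0.137 in FO, 0.299, 0.388 and 0.131 in BDL, and 0.737, 0.807 and 0.497 in MZ B cells. All MZ libraries stood above the rest, whereas BDL replicate 3 fell within the FO range. The values rest on approximately 24 to 40 fragments per library in FO, 34 to 87 in BDL and 97 to 186 in MZ B cells. The mean over the 9 libraries, 0.367 FPKM, was under the minimum for testing. When every row with a value above 0 was tested, the MZ over FO difference was 1.64 (SE 0.30, adjusted p = 0.00666), BDL over MZ was -1.11 (adjusted p = 0.0355) and BDL over FO was 0.53 (adjusted p = 0.38). Nt5e lies at chr9:88222447-88266927 on the plus strand.

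Entpd1 exceeded Nt5e in every library. The ratio of their FPKM was 33.1, 18.4 and 25.8 in FO, 14.3, 10.1 and 35.2 in BDL, and 9.10, 7.95 and 14.5 in MZ B cells. The FO and MZ ratios did not overlap, and those of BDL spanned both subsets.

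Ada, which removes adenosine, did not pass in any comparison. Its FPKM was 2.75, 2.85 and 2.17 in FO, 2.35, 2.71 and 2.30 in BDL, and 2.52, 2.67 and 2.80 in MZ B cells. The 3 subsets overlapped. The log2 difference was -0.07 for BDL over FO (95% interval -0.35 to 0.22, adjusted p = 0.753), -0.12 for BDL over MZ (-0.40 to 0.17, adjusted p = 0.533) and 0.05 for MZ over FO (-0.24 to 0.33, adjusted p = 0.834). These intervals leave out 2-fold differences in either direction. Ada lies at chr2:163552320-163575975 on the minus strand.

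Adora2a, the receptor for adenosine, was the gene of the set with its highest level in BDL. Its FPKM was 3.14, 3.56 and 3.22 in FO, 5.62, 5.81 and 4.88 in BDL, and 2.12, 3.52 and 2.02 in MZ B cells. Every BDL library stood above all others, and MZ replicate 2 reached the FO range while the other MZ libraries were below it. The means were 3.31 ± 0.219 FPKM in FO, 5.44 ± 0.494 FPKM in BDL and 2.55 ± 0.836 FPKM in MZ B cells (SD, n = 3). BDL exceeded MZ B cells by 1.10 on the log2 scale (SE 0.19, adjusted p = 0.00395) and were called. The difference fell under the 2-fold minimum when 1 was added (0.88) or when MZ replicate 1 (0.997) or 3 (0.96) was left out. BDL over FO was 0.70 (95% interval 0.25 to 1.15, adjusted p = 0.0689) and did not pass.

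The adjusted p of Adora2a between BDL and FO was under 0.05 in 3 of 22 alternative analyses, those with the sort date as a replicate block (0.0237), without MZ replicate 2 (0.0107) and with only the 6 libraries of the compared subsets (0.0224). MZ over FO was -0.40 (adjusted p = 0.172) with all libraries and -0.65 (adjusted p = 0.00573) without MZ replicate 2. That library has the highest neutrophil sum, 6.70 FPKM. It also has the highest marker sums of macrophages and monocytes (19.0 FPKM), NK cells (11.8 FPKM), dendritic cells (3.90 FPKM) and plasma cells (296 FPKM). Replicate 2 of FO and BDL had neutrophil sums of 5.85 and 5.45 FPKM, with Adora2a at 3.56 and 5.81 FPKM. Adora2a is also known from T cells, and the summed level of 8 T cell markers was 9.84 to 11.2 FPKM in FO, 19.0 to 23.9 FPKM in BDL and 7.58 to 13.3 FPKM in MZ B cells. Most of that sum was Lck, at 17.7 to 21.9 FPKM in BDL. Each of the other T cell markers was at most 0.797 FPKM in any library, a level reached by Cd3d in FO replicate 2. Cd3e was at most 0.342 FPKM in BDL and 0.406 FPKM in any library. The part of other cells in the Adora2a levels was not tested. Adora2a lies at chr10:74779688-74797533 on the plus strand.

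P2rx7, the channel opened by ATP, had its highest level in MZ B cells. Its FPKM was 0.756, 0.882 and 0.974 in FO, 0.786, 0.725 and 0.690 in BDL, and 1.27, 1.59 and 1.44 in MZ B cells. The MZ libraries stood above the rest, and FO and BDL overlapped. BDL over MZ was -0.87 (SE 0.15, adjusted p = 0.00327) and MZ over FO was 0.66 (adjusted p = 0.0121), both under the 2-fold minimum. Without the libraries of replicate 2, these adjusted p-values were 0.0802 and 0.146, and the MZ over FO difference also missed the threshold with quantile normalization (0.0772) and without FO replicate 1 (0.0519). BDL over FO was -0.21 (95% interval -0.56 to 0.13, adjusted p = 0.412). P2rx7 lies at chr5:123093920-123141441 on the plus strand. Macrophages and monocytes also carry P2rx7, and the summed level of 8 of their markers was 8.18 to 11.4 FPKM in FO, 10.2 to 13.9 FPKM in BDL and 12.4 to 19.0 FPKM in MZ B cells, whose part in the P2rx7 values was not tested.

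The ratio of Adora2a to P2rx7 FPKM separated the 3 subsets in another order than the enzymes did. It was 4.16, 4.03 and 3.31 in FO, 7.15, 8.01 and 7.07 in BDL, and 1.67, 2.22 and 1.40 in MZ B cells. BDL were highest and MZ lowest, without overlap.

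**Figure D3:**
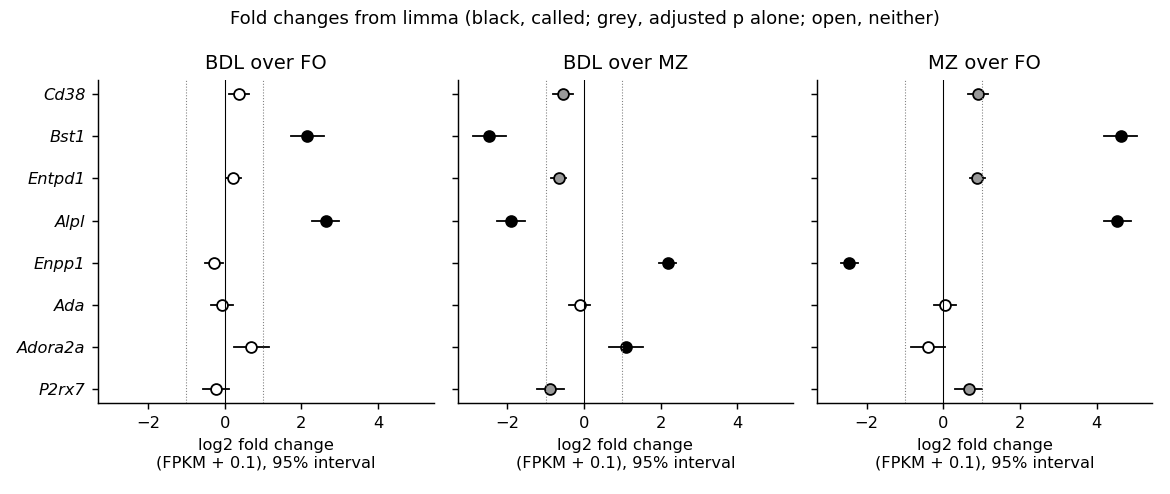
Log2 fold changes of the 8 tested genes on the log2(FPKM + 0.1) scale in the 3 comparisons, with 95% intervals. Bst1 and Alpl are the genes called between BDL and FO, at 2.16 and 2.64, and Ada lies near 0 in all 3 comparisons.

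The 6 genes with a BDL mean between those of FO and MZ B cells were placed on a linear FPKM scale with the FO mean at 0% and the MZ mean at 100%. The BDL means stood at 33.3% for Cd38, 14.6% for Bst1, 23.4% for Nt5e, 20.7% for Entpd1, 23.8% for Alpl and 20.4% for Enpp1. On this linear scale all 6 were nearer to FO than to MZ B cells. On the log2 scale of the tests, Alpl in BDL was nearer to MZ B cells, at 2.64 from FO and 1.90 from MZ B cells. Bst1 was nearer to FO on that scale, at 2.16 for BDL over FO and -2.46 for BDL over MZ. For both genes this order depended on the constant added before the log. With 0.01 added, Bst1 was nearer to MZ B cells (3.01 over FO and -2.61 over MZ). With 1 added, Alpl was nearer to FO (1.52 over FO and -1.64 over MZ). Nt5e spread most between the BDL libraries, from -3.25% to 45.0%, and Bst1 least, from 12.1% to 16.6%. The MZ markers, placed in the same way, stood at -10.8% for Cr2, 7.42% for Cd9, 4.16% for Cd1d1, 1.67% for S1pr3, -0.53% for Dtx1, 13.8% for Fcrl5, 38.9% for Plac8 and 2.22% for Ackr3. The 6 genes were picked by a BDL mean between FO and MZ, which fixed a position between 0% and 100% in advance. The MZ markers were not picked in this way, and the genes left out stood at -24.4% (P2rx7), -196% (Ada) and -282% (Adora2a). Positions of the genes and of the markers thus cannot be set against each other, and those of all rows were not computed. A position is a ratio of levels and does not separate a uniform level per cell from a mixture of cells.

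**Figure D4:**
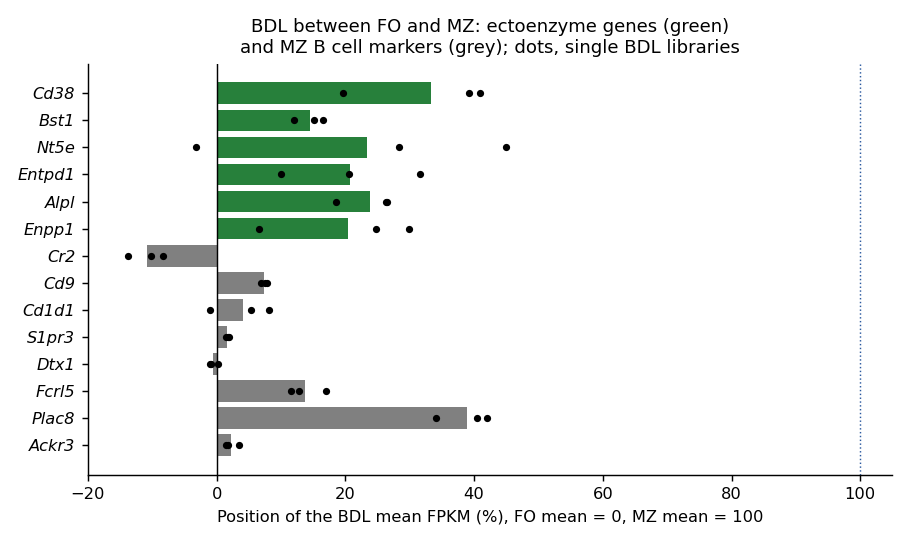
Position of BDL on a linear FPKM scale from the FO mean (0%) to the MZ mean (100%) for 6 of the 9 genes (green) and 8 MZ B cell markers (grey), where bars are BDL means and dots single BDL libraries. The green bars lie between 14.6% and 33.3%, and the grey bars between -10.8% (Cr2) and 38.9% (Plac8). Green genes were picked by a BDL mean between FO and MZ and grey markers were not, so the colours cannot be compared.

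Other genes of NAD turnover were read from a list of 22, of which 12 were tested. Between BDL and FO none of the 12 was called by limma, beside 1.91% of all rows tested. The adjusted p alone was passed by 1 (Nmnat3, an NAD-synthesizing enzyme, 0.55, adjusted p = 0.0173), beside 7.73% of all rows. An unadjusted p under 0.05 was found for 3, a share to be read beside the 24.3% of all rows tested. Trpm2, a calcium channel gated by ADP-ribose, followed MZ B cells: its FPKM was 0.189, 0.186 and 0.196 in FO, 0.138, 0.157 and 0.0967 in BDL, and 5.44, 6.30 and 5.36 in MZ B cells. The MZ libraries stood far above both other subsets, with a log2 difference of 4.32 over FO (adjusted p = 1.52e-06), and BDL were below MZ by -4.66 (adjusted p = 2.13e-06). Trpm2 reached the minimum of 0.5 FPKM only through its MZ level. Parp1, a nuclear enzyme that consumes NAD in DNA repair, was called in the opposite direction, with MZ over FO at -1.07 (adjusted p = 6.25e-04) and BDL over MZ at 1.30 (adjusted p = 2.38e-04). No other gene of the list was called in any of the 3 comparisons. Over all rows, 7.8% were called between BDL and MZ and 8.92% between MZ and FO. The median log2 difference of the 12 genes was 0.02 for BDL over FO, -0.06 for BDL over MZ and -0.04 for MZ over FO.

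Of 23 other nucleotide-hydrolysing enzymes, 10 were tested. Enpp4, a relative of Enpp1, was the 1 gene called, with BDL over MZ at 1.89 (adjusted p = 1.02e-04) and MZ over FO at -1.89 (adjusted p = 8.62e-05). The shares of all rows called in these comparisons were 7.8% and 8.92%. Between BDL and FO none was called by limma, beside 1.91% of all rows. The adjusted p alone was passed by 1 of the 10 (Nt5m, a mitochondrial nucleotidase, 0.37, adjusted p = 0.036), beside 7.73%. An unadjusted p under 0.05 was found for 3, beside 24.3% of all rows. The list medians were 0.10, 0.12 and -0.00183 for BDL over FO, BDL over MZ and MZ over FO, respectively.

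Of 18 genes of adenosine handling, 15 were tested. Adk, the kinase that returns adenosine to AMP inside the cell, was the 1 gene of the 15 called between BDL and FO (background 1.91%). Of the 15, 8 had an unadjusted p under 0.05 (background 24.3%). The adjusted p alone was passed by 4 including Adk (background 7.73%), all higher in BDL. The other 3 were Slc29a1 (0.73, adjusted p = 0.00549), Ank (0.65, adjusted p = 0.0331) and Slc29a3 (0.70, adjusted p = 0.0486). The FPKM of Adk was 2.19, 2.67 and 2.06 in FO, 4.81, 4.21 and 5.49 in BDL, and 3.95, 3.85 and 4.39 in MZ B cells. Both BDL and MZ libraries stood above all FO libraries, and the log2 difference of BDL over FO was 1.04 (SE 0.13, adjusted p = 0.0036). Between MZ and FO B cells, limma called 4 of the 15 higher in MZ, beside 5.54% of all rows, and 0 lower, beside 3.39%. By the adjusted p alone, 6 were higher (14.3% of all rows) and 2 lower (12.8%), the latter being Ank (-0.97, adjusted p = 0.00149) and Ampd3, an AMP deaminase (-0.40, adjusted p = 0.00535). The 4 called genes were the nucleoside transporters Slc29a1 (1.30, adjusted p = 4.46e-05), Slc29a3 (1.63, adjusted p = 2.26e-04) and Slc29a4 (1.20, adjusted p = 3.55e-04), and Ahcyl2 (1.5, adjusted p = 3.35e-06), a relative of the enzyme that splits S-adenosylhomocysteine. BDL were called lower than MZ B cells for Slc29a4 (-1.62) and Ahcyl2 (-1.43) and higher for Ank (1.61), which exports pyrophosphate and ATP. Over all rows, 7.8% were called between BDL and MZ B cells. The list medians were 0.10 for BDL over FO, -0.16 for BDL over MZ and 0.35 for MZ over FO.

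Of 21 other genes listed under purine receptors and ATP release, 6 were tested. Membership of this list does not establish that a receptor, such as P2ry10, binds a purine. Adora3, another adenosine receptor, was called higher in MZ than in FO B cells (1.28, adjusted p = 0.00885) and lower in BDL than in MZ B cells (-1.63, adjusted p = 0.00289). Its MZ level varied between 1.04 and 2.03 FPKM, above the FO range of 0.453 to 0.65 FPKM. The Adora3 means were 0.533 FPKM in FO and 0.400 FPKM in BDL, and these libraries together averaged under the minimum of 0.5 FPKM. Adora3 was thus tested only through its MZ level. Lrrc8a, a subunit of the volume-regulated anion channel, was called with MZ below FO B cells (-1.20, adjusted p = 3.45e-04). Over all rows, 7.8% were called between BDL and MZ and 8.92% between MZ and FO. Between BDL and FO none of the 6 was called by limma (background 1.91%) or passed the adjusted p alone (background 7.73%). An unadjusted p under 0.05 was found for 1, beside 24.3% of all rows. The list medians were -0.28 for BDL over FO, -0.07 for BDL over MZ and -0.31 for MZ over FO.

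Across the 9 libraries, the 3 rows most like each gene that was called in any comparison were found by the Pearson correlation of log2(FPKM + 0.1) over the 11597 rows tested. The libraries fall into 3 subsets, so that these values mostly describe the order of the subset means, and they carry no p. For Bst1 they were Lysmd2 (r = 0.999), Znrf3 (0.997) and Plxnd1 (0.997). For Alpl they were Lipc (0.995), Dnase1l3 (0.995) and Elovl6 (0.994). Enpp1 was most like Fam102b (0.998), Fcgrt (0.997) and Gmfg (0.997), and Adora2a was most like Spry2 (0.975), Gstm1 (0.971) and Ptov1 (0.962). Within the set, the correlation was 0.985 for Alpl and Bst1, 0.968 for Cd38 and Bst1 and -0.963 for Entpd1 and Enpp1 over the same libraries.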

How the data were processed

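Gene expression was measured by RNA-seq in 9 libraries, 3 each of FO, BDL and MZ B cells. The authors aligned the reads to mm9 with TopHat2 2.1.0 and deposited FPKM per gene and library, computed with Cufflinks, whose version and annotation are not given in the sources used here. The deposited table of the authors' Cuffdiff comparisons holds fold changes and p-values and was not used.

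Values were log2(FPKM + 0.1), without further scaling. A limma model (version 3.58.1, R 4.3.3) with subset as its term was fitted to all 9 libraries, with contrasts between subsets and a trended eBayes prior, for the 11597 rows averaging 0.5 FPKM or more. Adjustment was by Benjamini-Hochberg over these rows, and the 95% intervals are unadjusted. Calls needed an adjusted p below 0.05 and a 2-fold difference. Exact permutation tests (two-sided) were run for single genes. Replicates are taken as pools from separate sorts, so p-values measure the spread between pools. The fit was tested on simulated data.

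Depth was estimated from steps between low FPKM of genes with 1 transcript of at least 3000 nt. Per library, 73.0% to 79.9% of these values came within 0.1 of whole fragments, where 20% would by chance. Since the share is not near complete, no count test was run, and fragment numbers are approximate. Gene positions came from GENCODE M1 on NCBIM37, and promoters from RefSeq on GRCm38.p6. No coordinate was converted between builds.

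Libraries of one replicate number share a date in their titles, taken here as the sort date, which would pair them by day. Across genes, the deviations from the subset means of same-numbered libraries correlated at 0.147, -0.0623 and 0.0491 (BDL and FO), 0.1, 0.182 and 0.244 (BDL and MZ) and 0.0238, 0.0077 and 0.0138 (MZ and FO).

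The genes, pathway lists and marker lists were chosen with earlier results of these data known. Named were all 9 genes, the called genes of the pathway lists (up to 4 with the largest difference per list and comparison) and the 3 rows most correlated with each called gene. Neighbours of Cd38 and marker genes were named after their values were seen. Marker lists were used for summed levels, with single markers named for position, for the MZ marker sum and for the T cell list, and were not tested. Alternatives were other added constants, minimums, scalings and eBayes options, the sort date as a replicate block, 6 libraries only, repeated symbols summed, no fold change minimum and each library left out in turn. Leaving out replicate 2 of all subsets was chosen after seeing the data.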

Additional observations from a re-analysis of the deposited data

How the results depend on the processing

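Each fold change was recomputed under up to 22 alternatives. Of the resulting values for the 8 tested genes, 511 kept their direction and their side of the call, 8 became called, 4 were no longer called and 4 turned direction. The 4 that turned were all of Ada, near 0: BDL over FO was 0.00106 without FO replicate 2, BDL over MZ was 0.00545 with quantile normalization, and MZ over FO was -0.0766 with quantile normalization and -0.0721 without FO replicate 3. With single libraries left out, BDL over FO ranged from -0.19 to 0.00106 and MZ over FO from -0.0721 to 0.12.

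The number of genes called between BDL and FO went from 2 to 1 when 1 was added before the log, where Bst1 fell under the fold change minimum, and to 1 with only the 6 libraries of the compared subsets, where the mean of Bst1 was under the minimum for testing. Without a fold change minimum, 7 genes were called between BDL and MZ instead of 4 and 6 between MZ and FO instead of 3. Cd38 was called between MZ and FO without FO replicate 2 (1.02) and without replicate 2 of all subsets (1.05). With the sort date as a replicate block, 2, 4 and 3 genes were called in the 3 comparisons, as without it. With each library left out in turn, 2 genes were called between BDL and FO, 3 to 4 between BDL and MZ and 3 to 4 between MZ and FO. Of the whole table, the count between BDL and FO was 94 with 1 added, 91 without replicate 2 of all subsets and 896 without a fold change minimum, compared with 221. It was 3255 without that minimum compared with 905 between BDL and MZ, and 674 with 1 added and 3141 without that minimum compared with 1035 between MZ and FO. Depth limits Bst1 and Nt5e most in FO.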
